A study of Mus musculus with 12 samples.

Results

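To learn how medulloblastoma (MB) of the XRCC4/p53-deficient mouse differs from the brain region in which it grows, array expression profiles of 8 MBs and of 2 samples of whole cerebellum (WC) were compared across all genes. These are 10 of the 12 samples of the series, chosen by the MB or WC in their titles and not by any measured value, and the other two are granule neural progenitors (GNPs), which are given only for single genes and, by their level, to set apart a few genes. The MB mice carried Nestin-Cre, which acts in neural progenitors, lacked p53, and were either Xrcc4 c/- or Xrcc4 c/c, so that Xrcc4, a factor of classical non-homologous end joining, was lost in the neural lineage. Every MB therefore carries the same combined deficiency, and none lacks p53 alone. The labels give WC as normal tissue with no genotype, age or sex, and the study describes such tissue as non-neoplastic cerebellum of age- and genotype-matched control animals. The labels call the MBs tumor tissue, whereas the study's text speaks of medulloblastoma cells and lists 6 of the 8 among its cultured cells. The study states that the tumors it sequenced, among which it lists these MB numbers, had a high tumor cell content by neuropathology. It gives no share of other cells for the material on the arrays. Each sample was named by its mouse number, 1 array per mouse. A gene level is the log2 value after GCRMA normalization, averaged over the probe sets that belong to that gene alone, and 17903 genes were measured.

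As background, the cerebellum is dominated by small excitatory granule neurons, which arise after birth from progenitors of the external granule layer. These progenitors divide under Sonic hedgehog secreted by Purkinje neurons, express the transcription factor Atoh1, and then leave the cell cycle and migrate inwards. MBs of the hedgehog group are thought to arise from this lineage, whereas adult cerebellum holds post-mitotic granule and Purkinje neurons, inhibitory interneurons, Bergmann glia, astrocytes, oligodendrocytes and vessels. In such bulk samples fewer cells of a type and less RNA per cell cannot be told apart.

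The arrays were of similar quality with 1 exception. The difference between 3′ and 5′ control probe sets, a sign of RNA integrity, was 2.93 on the log2 scale in MB_706, whereas the other MBs had 0.56 to 0.82 and the WC samples 0.48 to 0.52. The correlation across genes was 0.995 between both WC samples, 0.972 to 0.992 between MBs and 0.834 to 0.882 between MB and WC. Xist, the RNA of the inactive X chromosome, was at or close to the floor in both WC samples and in MB_1187 and MB_1197, and between 11.50 and 11.80 in the other 6 MBs, whereas Eif2s3y of the Y chromosome was at 7.08 in both WC samples, at 5.93 and 6.43 in those MBs and at the floor in the other 6. The groups therefore differ in sex composition, which the labels do not give. The share of genes called higher on the X chromosome was 23.6%, beside 21.6% over all genes. Xrcc4 itself was lower in MB (lowest, median and highest log2 level 2.44, 2.88 and 3.57) than in WC (4.25 and 4.34), a log2 difference of -1.36 (SE 0.280, adjusted p = 0.00367 from limma). Whether its probe set covers the conditionally deleted sequence was not determined, so this level does not measure the deletion. Trp53 was not analysed here.

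MB and WC differed in a large part of the genome. Of the 17903 genes, 7628 (42.6%) passed the threshold of limma's test at an adjusted p of 0.05, with 3864 higher (21.6%) and 3764 lower (21.0%) in MB. The 8 MB levels and the 2 WC levels did not overlap for 8404 genes (46.9%), of which 4349 lay above (24.3%) and 4055 below (22.6%). The median log2 difference was 1.24 among the genes called higher and -1.30 among those called lower. A log2 difference of at least 4, or 16-fold, was reached by 253 genes upwards and 300 downwards, and a difference of at least 8 by 10 and 6 genes. Of the genes called, 102 of the higher ones lay close to the floor in WC and above a level of 5 in MB, and 98 of the lower ones lay close to the floor in MB and above 5 in WC. Here close to the floor means that every sample of the group lay within 0.5 of the lowest value of the table, where a fold is a lower bound. At the other end, 5301 genes lay close to the floor in all 10 samples. Among the 6987 genes above 5 in both groups the median difference was 0.12, and 692 had a 95% interval of the difference within 0.5 in either direction. Every array was also shifted to the same median over the genes whose mean across the 10 samples was above 5. This moved the difference by -0.22 and changed the split to 3367 higher and 9938 lower. Of the latter, 5112 were close to the floor in all samples, so differences as small as this depend on the scaling.

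**Figure D1:**
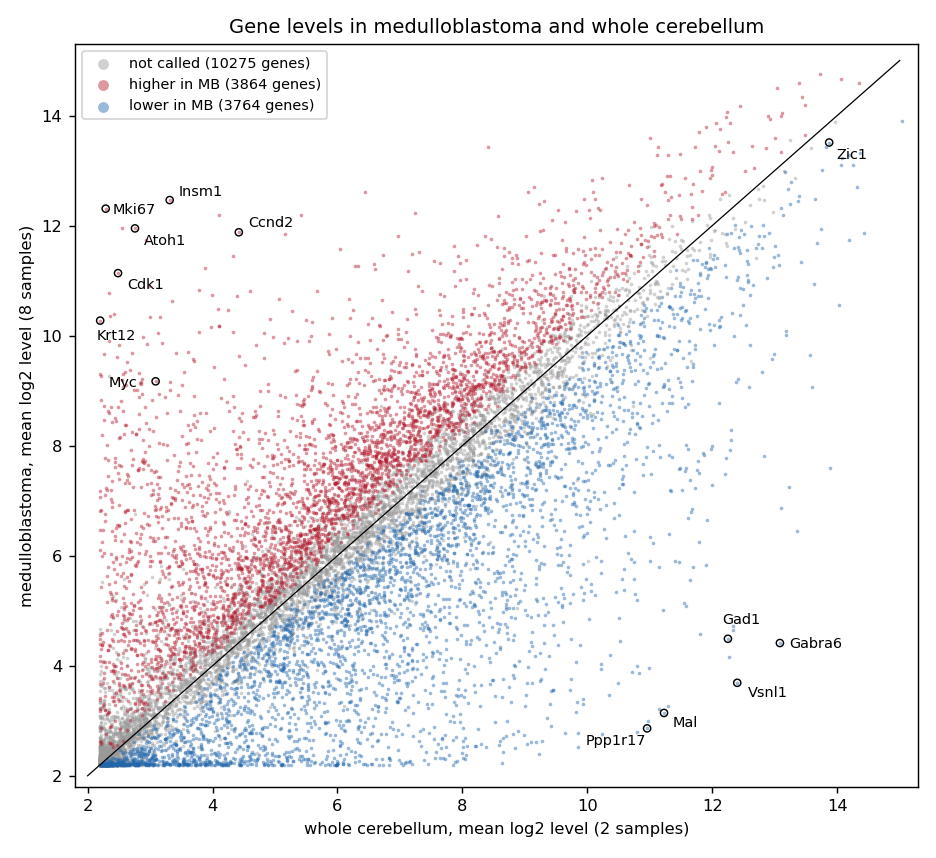
Mean log2 level of each of the 17903 genes in the 2 whole cerebellum samples (horizontal axis) and in the 8 medulloblastomas (vertical axis), with the line of equal levels and a few labelled genes. Red points are the 3864 genes called higher in MB, blue points the 3764 called lower and grey points the genes not called; proliferation and granule progenitor genes such as Mki67, Atoh1 and Insm1 are high in MB and low in WC, and neuronal and myelin genes such as Gabra6, Vsnl1 and Mal the reverse.

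The largest rises combined genes of dividing cells with genes of the granule lineage. Mki67, which encodes the proliferation marker Ki-67, was at 2.25 and 2.33 in WC, close to the floor, and at 11.98, 12.34 and 12.66 (lowest, median and highest) in MB, a log2 difference of 10.02 (SE 0.147, adjusted p = 1.91e-10) or at least 1037-fold. Atoh1, the basic helix-loop-helix factor that defines granule progenitors, stood at 2.81 and 2.70 in WC and at 11.13, 11.99 and 12.55 in MB, a difference of 9.19 (SE 0.317, adjusted p = 5.79e-08). Insm1, a zinc finger factor of neuronal progenitors, rose by 9.15 (SE 0.135) to a mean of 12.46 ± 0.18 (SD, n = 8). Each of these MBs lay more than 8 log2 units above both WC samples, so the groups are far apart for all 3 genes. Tox3, which encodes a chromatin protein of the HMG box family, was close to the floor in WC and at 11.47, 11.89 and 12.59 in MB. The next places were taken by cell cycle genes, namely Ube2c (8.82, SE 0.230), Cdk1 (8.65, SE 0.179), Birc5 (8.44, SE 0.154), Mcm6 (8.09, SE 0.260), Cdk6 (8.01, SE 0.225) and Ect2 (7.97, SE 0.102). Sfrp1, a secreted WNT antagonist expressed by granule progenitors, rose by 7.91 (SE 0.492). Krt12, a keratin best known from the corneal epithelium, was at the floor in both WC samples and at 9.76 or more in every MB, with a difference of 8.07 (SE 0.413, adjusted p = 7.37e-07).

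The largest falls were of genes of mature cerebellar neurons and of myelin. Vsnl1, a neuronal calcium sensor, was at 12.39 and 12.41 in WC and at 2.49, 3.55 and 5.79 in MB, a log2 difference of -8.71 (SE 0.713, adjusted p = 1.47e-05). Gabra6, the GABA-A receptor subunit that marks mature granule neurons, was at 13.09 and 13.07 in WC and ranged from 2.24 over a median of 4.16 to 8.78 in MB, a difference of -8.67 (SE 1.40, adjusted p = 0.000930). Eno2, the neuronal enolase, differed by -8.10 (SE 1.03), and Ppp1r17, a phosphatase inhibitor of Purkinje neurons, by -8.10 (SE 0.905). The myelin proteolipid gene Mal differed by -8.09 (SE 0.655), and Tmem59l, Elmod1 and Crtam by -8.01, -7.97 and -7.94. Slc1a6, the glutamate transporter of Purkinje neurons, had a mean of 2.80 in MB and 10.80 in WC, and was followed by Gad1 (-7.76), the GABA-synthesizing enzyme, Rgs8 (-7.68), a G protein regulator of Purkinje neurons, and Cbln3 (-7.60), a granule neuron secreted protein. In contrast to the 12 largest rises, these 12 falls varied widely between tumors. In all 12 of these genes MB_630 was the highest of the 8 MBs, for example 5.97 against at most 2.54 in the others for Ppp1r17. The median SD over the 8 MBs was 0.37 among the genes called higher by 4 or more and 0.55 among those called lower by 4 or more. Over all called genes it was 0.24 for the higher and 0.22 for the lower, so the contrast is limited to the largest changes.

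**Figure D2:**
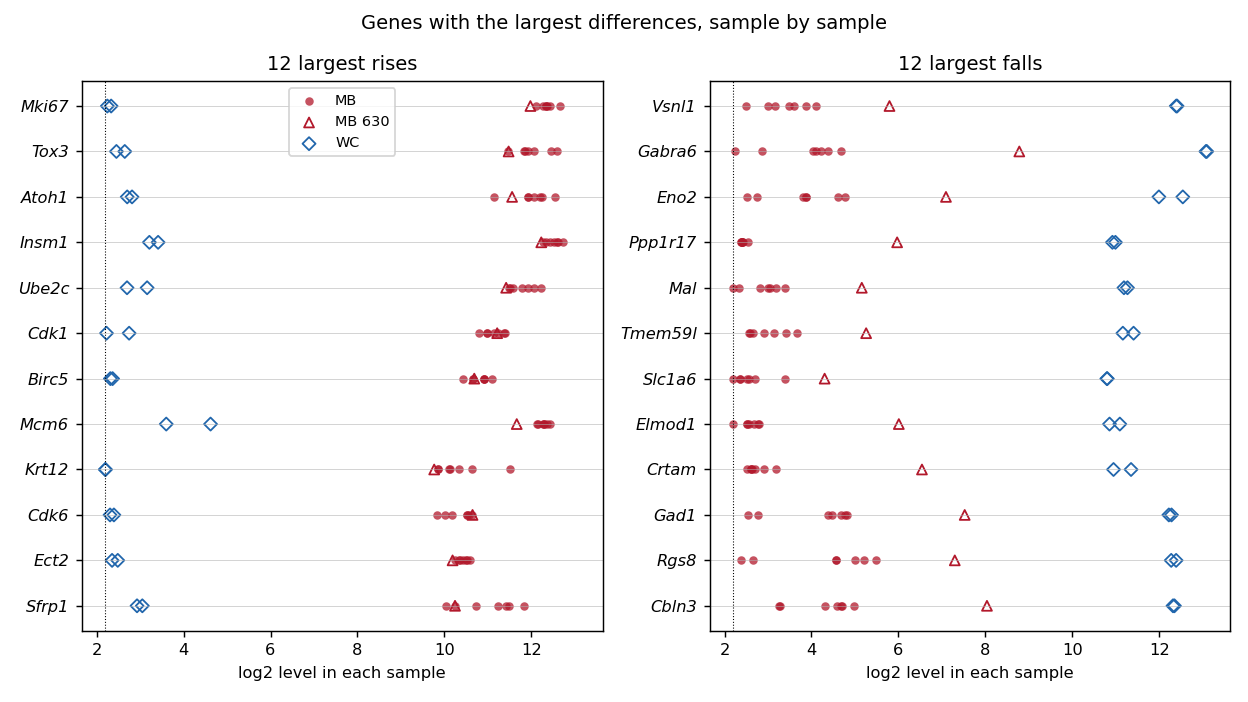
Log2 level in each sample for the 12 genes with the largest rise (left) and the 12 with the largest fall (right); red dots are MBs, the open red triangle is MB_630, open blue diamonds are the 2 WC samples and the dotted line is the lowest value of the table. MB and WC do not overlap for any of the 24 genes, and MB_630 is the highest MB for every one of the 12 falling genes.

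Nearly all genes of the cell division machinery were higher in MB. Of 56 measured genes of mitosis, 54 rose and none fell, with a median difference of 4.91, beside 21.6% of all genes called higher and a median of 0.12 among genes above 5 in both groups. A mean level above 5 was reached by 51 of the 56 in MB and by 5 in WC. Cyclin-dependent kinase 1 (Cdk1), which drives entry into mitosis, was at 2.23 and 2.75 in WC and at 10.80, 11.17 and 11.39 in MB. Ube2c, the ubiquitin-conjugating enzyme of the anaphase-promoting complex, was at 3.16 and 2.70 in WC and at 11.42, 11.67 and 12.22 in MB. The cyclins Ccna2 and Ccnb2 rose by 7.28 and 7.17, the kinase Plk1, which was close to the floor in WC, by 6.31 and the kinetochore protein Ndc80 by 6.26. The 2 members that did not pass were Anln, which was at about 8.1 in both groups, and Kif15, which was at the floor.

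Of 50 measured genes of origin licensing and the replication fork, 47 rose and none fell, with a median of 2.65. Mcm6, a subunit of the replicative helicase, was at 3.60 and 4.62 in WC and at 11.66, 12.28 and 12.44 in MB. Gins1, which activates that helicase, rose by 6.96 (SE 0.113, adjusted p = 3.85e-10) and Pole, the leading strand polymerase, by 6.74 (SE 0.169, adjusted p = 7.03e-09). Mcm2 rose by 6.07, Mcm7 by 4.60, Mcm4 by 3.81 and Mcm5 by 3.65. The 3 members not called were Orc3, Orc4 and the kinase gene Cdc7, with differences of 0.35, 0.19 and 0.07. Nucleotide synthesis followed, with 26 of 28 genes higher, none lower and a median of 1.62. Rrm2, the cell cycle regulated subunit of ribonucleotide reductase, rose by 7.08 (SE 0.423), and thymidine kinase Tk1, which was close to the floor in WC, by 6.62 (SE 0.188).

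The regulators of the G1 to S transition rose as well. In the list of cyclin-dependent kinases, their inhibitors, the RB family and E2F factors, 19 of 27 genes were higher and 1, Cdkn2d, lower by 0.39, with a median of 1.52. Cdk6, a partner of D-type cyclins, was at 2.31 and 2.40 in WC, close to the floor, and at 9.84, 10.52 and 10.65 in MB, which is at least 258-fold. Cdk4 rose by 4.05 (SE 0.162) and the repressor E2f7 by 5.64 (SE 0.263). Among the inhibitors Cdkn2c rose by 3.80 and Cdkn2b by 2.76, whereas Cdkn1a, a target of p53, had levels of 6.1 in MB and 6.3 in WC on average and was not called. Ccnd2, which encodes cyclin D2, rose by 7.46 (SE 0.420), from 4.00 and 4.85 in WC to 11.23, 11.78 and 12.76 in MB. The oncogenes Myc and Mycn rose by 6.08 (SE 0.989) and 4.30 (SE 0.423). Myc varied most between tumors, with MB levels of 7.35, 8.79 and 11.47, yet its lowest MB lay above WC (3.15 and 3.03). The study had chosen these 3 genes on these tumors, so their direction is not independent evidence.

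**Figure D3:**
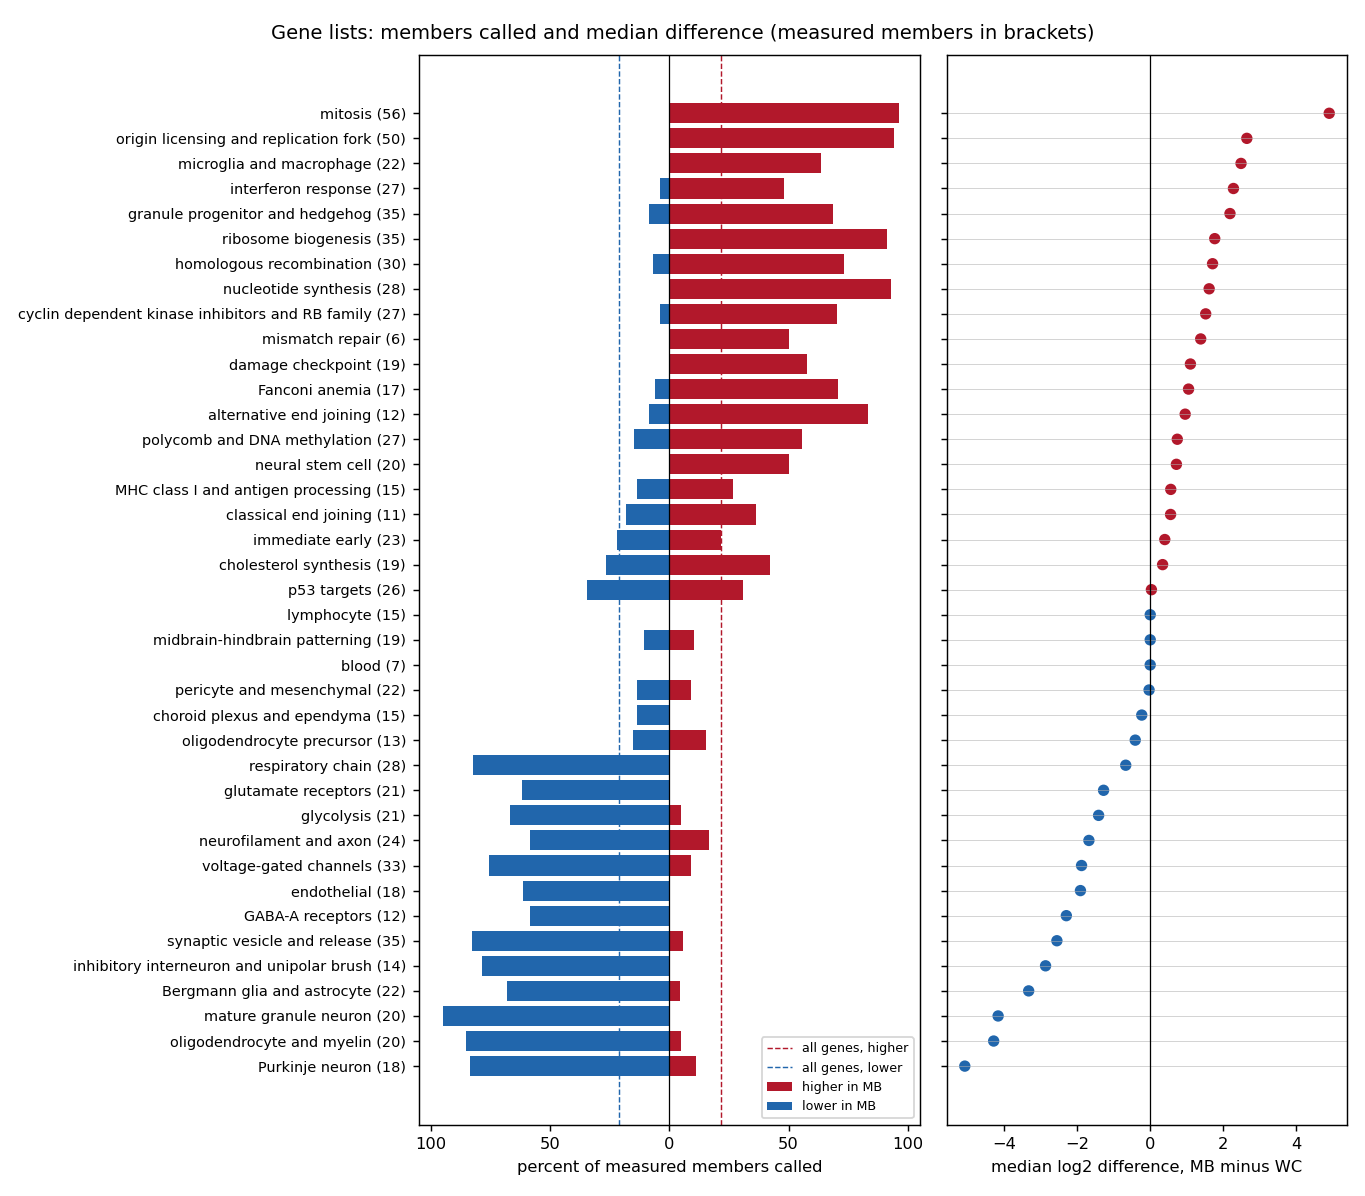
Share of the measured members of each gene list that was called higher (red) or lower (blue) in MB (left) and the median log2 difference of the list (right), with the number of measured members in brackets and dashed lines at 21.6% and 21.0%, the shares over all genes. The mitosis and replication lists lie at the top with nearly all members higher. The microglia, interferon and granule progenitor lists follow with smaller shares higher, and then the ribosome list with nearly all members higher. Neuron, myelin and astrocyte lists lie at the bottom with most members lower.

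Since the genes of mitosis moved together, their promoters were searched for letters known from cell cycle promoters, in RefSeq windows of 300 bases (most of it before each start, GRCm38.p6), on both strands. The CCAAT box is bound by the factor NF-Y, TTTGAA is the core of the cell cycle homology region (CHR) bound by the MuvB complex, and TTTCGCGC and TTTGGCGC are forms of the E2F element. A window was found for 14216 of the measured genes, 17826 windows in all. Both CCAAT and TTTGAA were present in 5.22% of all windows, in 5.92% of those of genes called higher, in 19.8% of those higher by 4 or more, in 3.37% of those lower by 4 or more, and in 32 of 54 windows (59.3%) of the mitosis list. Either E2F element was present in 1.23% of all windows, in 2.29% of those of genes called higher, in 0.986% of those called lower and in 11 of 49 windows (22.4%) of the licensing and fork list, but in 7.41% of the mitosis windows. The GLI element GACCACCCA, bound by effectors of hedgehog signaling, was in 0.191% of all windows and in 0.280% of those of genes called higher. These are counts of letters in a window and say nothing of binding.

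The 150 bases before the start are shown for genes described above, to let the letters be seen in place, 5′ to 3′ on the strand of the gene, with the CCAAT box, the CHR core and both E2F forms in capitals on either strand, so that their reverse complements are in capitals too. The mitosis genes Ube2c, Cdk1 and Top2a hold a pair of CCAAT boxes or more with TTTGAA, and Mcm6 holds overlapping E2F elements. The last 10 bases shown for Top2a lie inside its annotated gene.
Ube2c, chr2:164769779-164769928, plus strand: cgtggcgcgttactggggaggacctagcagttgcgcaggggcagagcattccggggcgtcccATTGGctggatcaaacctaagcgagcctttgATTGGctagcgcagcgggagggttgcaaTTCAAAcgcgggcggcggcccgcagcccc
Cdk1, chr10:69352913-69353062, minus strand: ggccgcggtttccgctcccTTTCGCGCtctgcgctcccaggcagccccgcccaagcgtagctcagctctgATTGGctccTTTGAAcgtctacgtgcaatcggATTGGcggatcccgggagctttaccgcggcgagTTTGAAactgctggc
Top2a, chr11:99024190-99024339, minus strand: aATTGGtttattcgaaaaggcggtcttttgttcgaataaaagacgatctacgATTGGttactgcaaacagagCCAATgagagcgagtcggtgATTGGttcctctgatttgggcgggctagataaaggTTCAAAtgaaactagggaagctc
Mcm6, chr1:128359706-128359855, minus strand: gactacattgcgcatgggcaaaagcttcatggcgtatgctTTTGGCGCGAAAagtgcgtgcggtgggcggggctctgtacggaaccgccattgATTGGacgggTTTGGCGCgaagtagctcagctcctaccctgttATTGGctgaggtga
Rfc3, chr5:151651209-151651358, minus strand: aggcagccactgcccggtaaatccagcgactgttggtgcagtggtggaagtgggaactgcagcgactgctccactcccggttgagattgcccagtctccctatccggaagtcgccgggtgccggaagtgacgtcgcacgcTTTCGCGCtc
Birc5, which rose by 8.44, holds none of these letters in the same stretch, Atoh1 holds CCAAT alone, and so does Gabra6, which is shown as a gene that fell.
Birc5, chr11:117849087-117849236, plus strand: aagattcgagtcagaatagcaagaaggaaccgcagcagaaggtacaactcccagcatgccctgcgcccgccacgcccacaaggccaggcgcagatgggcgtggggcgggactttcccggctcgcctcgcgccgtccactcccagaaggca
Atoh1, chr6:64728975-64729124, plus strand: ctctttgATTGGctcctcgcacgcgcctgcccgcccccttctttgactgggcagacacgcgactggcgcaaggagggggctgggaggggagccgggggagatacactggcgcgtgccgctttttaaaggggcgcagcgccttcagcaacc
Gabra6, chr11:42321073-42321222, minus strand: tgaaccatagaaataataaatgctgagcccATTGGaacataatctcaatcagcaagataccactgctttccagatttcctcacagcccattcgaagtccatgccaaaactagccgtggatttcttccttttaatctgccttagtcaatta
Top2a, the topoisomerase that untangles sister chromatids, rose by 4.83, and the clamp loader subunit Rfc3 by 2.91.

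The granule lineage was represented by its progenitor genes. Of 35 measured genes of granule progenitors and hedgehog signaling, 24 were higher and 3 lower, with a median of 2.19, and the mean of the list was almost the same in every tumor, from 7.96 in MB_1207 to 8.20 in MB_1187, against 5.02 and 5.08 in WC. Barhl1, a homeobox factor of the rhombic lip, was at 3.75 and 3.07 in WC and at 8.93, 9.69 and 10.45 in MB. Gli1, a transcription factor and direct target of hedgehog signaling, was at 3.61 and 3.40 in WC and at 8.65, 8.92 and 9.91 in MB, a difference of 5.59 (SE 0.310, adjusted p = 1.23e-06). Gli2, the main activator of the pathway, rose by 4.73, the receptor component Smo by 2.19, the hedgehog-binding protein Hhip by 2.38 and cyclin D1 (Ccnd1), a hedgehog target, by 4.21. Ptch1, the receptor that restrains Smo, averaged 7.40 in MB and 6.64 in WC and was not called. The chemokine receptor Cxcr4 rose by 6.21, and Sox11 and Nhlh1, factors of newborn neurons, by 7.34 and 6.26. Of the 3 that were lower, Eomes, a factor of unipolar brush cells, differed by -2.70 and was not called without either WC sample. Cdon, a co-receptor, was lower by 2.19, with 3.28 ± 0.40 (SD, n = 8) in MB. Zic1, a zinc finger factor of granule cells at all ages, averaged 13.51 in MB and 13.87 in WC, a difference of -0.36, and without WC_2647 it was not called.

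In the GNPs, the normal counterpart of these progenitors, Atoh1, Mki67, Insm1 and Ccnd2 lay between WC and MB, and Gli1 did not. Atoh1 averaged 5.95 and Mki67 9.02 over the 2 GNP samples, against 11.95 and 12.31 in MB. Insm1 averaged 9.55 and Ccnd2 9.12 in GNPs. Gli1 averaged 2.30 in GNPs, below both WC samples. With 2 GNP samples these levels are given for orientation only. The genes close to the floor in both normal tissues and above a mean of 5 in MB were 13 in number. They were chosen by these levels and named after their values were seen, so that their levels are a description with no test. Besides Krt12 they were Olig3, a rhombic lip factor (MB mean 9.90), Mymx (9.27), a micropeptide of muscle cell fusion, Lhx2 (8.80), a homeobox factor of forebrain and retina, Cbln4 (8.01), a synaptic organizer, Haspin (7.11), a histone kinase of mitosis, D930003E18Rik (6.81), Chtf18 (6.57), a clamp loader subunit, C1ql1 (6.36), 9630013D21Rik (6.24), Lrr1 (5.24), Foxa2 (5.23), a factor of the floor plate, and Tbx1 (5.19). Foxa2 and Tbx1 were uneven between tumors, from 3.52 to 7.33 and from 2.64 to 7.48, and Tbx1 was not called. Conversely, 16 genes lay close to the floor in every MB and above a mean of 5 in WC and GNPs, among them Tfap2b, a factor of GABAergic precursors, with a log2 difference of -5.43 between MB and WC, and Clstn3, a synaptic adhesion protein, with -6.40.

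Otx1, a homeobox factor of forebrain, midbrain and granule progenitors, was at the floor in both WC samples and at 6.91, 9.71 and 10.63 in MB, a difference of 7.09 (SE 0.899, adjusted p = 0.000216). It led the list of midbrain and hindbrain patterning genes, in which 2 of 19 were higher, the other being Zic4 (1.21), and 2 lower. Both shares were below the 21.6% and 21.0% of all genes, and 10 of the 19 were close to the floor in both groups. En2, a homeobox factor of the cerebellar territory, was lower by 1.33 on the log2 scale and stood at 9.37, 9.73 and 10.23 in MB against 11.20 and 10.98 in WC. Irx3, another homeobox factor, was lower by 3.03. Of the neural stem cell genes, 10 of 20 were higher and none lower, with a median of 0.72. Cd24a, a surface protein of neural progenitors, rose by 6.17 (SE 0.165). Sox2 and Vim were not called, with differences of -0.18 (95% interval -1.20 to 0.84) and 0.20 (95% interval -0.95 to 1.36). These intervals are wide, and without MB_1207, the lowest MB for both, Vim was higher by 0.45 and called. Pdgfra, a receptor of oligodendrocyte precursors and of mesenchymal cells, rose by 4.11 (SE 0.430) and was at 8.26 or above in every MB. The precursor list as a whole had 2 of 13 genes higher, Pdgfra and Olig2 (1.65), which lost its call without either WC sample, and 2 lower, Tnr (-3.24) and Gpr17 (-1.81). Both shares were below those over all genes.

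Genes of differentiated granule neurons were low. Of 20 measured markers 19 fell and none rose, with a median of -4.17. Besides Gabra6 and Cbln3, Chn2, a Rac regulator, fell by 7.23 on the log2 scale and Grm4, the presynaptic metabotropic receptor of parallel fibers, by 5.91. Calb2 fell by 6.24 and Cbln1 by 3.09, although Cbln1 still had a mean of 10.08 in MB. The exception was Neurod1, a factor of differentiating granule cells, with a mean of 12.86 in MB and 13.33 in WC and no call. The mean of the list in MB ran from 4.93 in MB_1207 to 6.88 in MB_630, against at most 10.01 in WC.

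Most markers of the other cerebellar neurons were lower too. Of 18 Purkinje neuron genes 15 were lower and 2 higher (median -5.09), and of 14 genes of inhibitory interneurons and unipolar brush cells 11 were lower and none higher (median -2.87). Pcp2, which is particular to Purkinje neurons in the cerebellum, was at 10.78 and 10.82 in WC and at 2.71, 3.99 and 5.93 in MB. Calb1, their calcium buffer, was at 9.67 and 9.96 in WC and at 2.26, 2.96 and 5.70 in MB. Pvalb was at 13.97 and 13.79 in WC and at 5.52, 7.36 and 10.45 in MB, with an SD of 1.82 that was among the 5 largest of all called genes. The 2 exceptions were Lhx1 and Foxp2, factors also present in immature neurons, which rose by 2.07 (SE 0.270) and 1.91 (SE 0.238). Slc6a5, the glycine transporter, was at the floor in every MB and at 4.15 and 4.26 in WC.

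The machinery of the synapse and of electrical signaling followed the neurons. In the list of synaptic vesicle and release genes 29 of 35 were lower and 2 higher (median -2.56), in that of voltage-gated channels 25 of 33 lower and 3 higher (median -1.88), in that of glutamate receptors 13 of 21 lower and none higher (median -1.28), and in that of GABA-A receptors 7 of 12 lower and none higher (median -2.30). Syt1, the calcium sensor of transmitter release, was at 8.94 and 9.12 in WC and at 3.18, 3.63 and 4.40 in MB. The potassium channel partner Kcnip4 fell by 6.54 and the calcium channel subunit Cacnb4 by 5.57 on the log2 scale. A few members went the other way. Slc17a6, the vesicular glutamate transporter of immature and brainstem neurons, rose by 2.94 (SE 0.425) while Slc17a7, its counterpart in mature granule neurons, fell by 3.64. The sodium channel gene Scn3a, known from embryonic brain, rose by 1.87 (SE 0.245). Among neurofilament and axon genes 14 of 24 were lower, led by Nefh (-7.47) and Thy1 (-6.51), and 4 were higher, among them Dpysl3 (3.41), Stmn1 (1.51) and Tubb3 (1.34), which belong to the cytoskeleton of young neurons.

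Most genes of myelin and of astrocytes were lower. Of 20 oligodendrocyte and myelin genes 17 were lower and 1, Olig2, higher (median -4.29), with Mag at 9.18 and 9.01 in WC and at 2.25, 2.36 and 3.79 in MB, and Mog at 7.56 and 7.66 in WC and at 2.32, 2.42 and 3.77 in MB. Mbp, the main myelin protein, kept a mean of 7.72 in MB against 11.77 in WC. Of 22 genes of Bergmann glia and astrocytes 15 were lower and 1 higher (median -3.33). Without WC_2646 the number lower was 5, and without WC_2647 it was 7, so these calls need both WC samples. Ntsr2, an astrocyte receptor, fell by 5.63 (SE 0.372), whereas Gfap, the intermediate filament of astrocytes, averaged 6.12 in MB and 5.01 in WC and was not called, although without MB_1207 it was (difference 1.36). Sox9, the 1 member that was higher, lost its call without either WC sample. This list varied widely between tumors, its mean being 5.58 in MB_1207 and 7.98 in MB_794, against 9.88 and 9.83 in WC.

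Myeloid genes were the cell type markers beside those of granule progenitors that were mostly higher. Of 22 genes of microglia and macrophages 14 rose and none fell (median 2.49). Cd68, a lysosomal protein of phagocytes, was at 2.64 and 3.60 in WC and at 6.91, 7.56 and 7.74 in MB. Lyz2, the lysozyme of macrophages, was at 5.35 and 5.82 in WC and at 9.95, 10.15 and 10.78 in MB. Lgals3 rose by 5.22, and the complement genes C1qa, C1qb and C1qc rose by 2.94, 2.99 and 3.58. In GNPs Lyz2 averaged 10.06 and Lgals3 7.80, near their MB means of 10.24 and 8.26. Cd68 averaged 4.57 in GNPs, below its MB mean of 7.44. The 8 members not called included Csf1r, Cx3cr1, Tmem119 and P2ry12, with differences of 0.55, 0.55, 0.09 and -1.12. The mean of the list ranged from 5.97 in MB_1224 to 6.88 in MB_1206. Of 15 lymphocyte markers none was called, 14 were close to the floor in all 10 samples, and Il7r was at 2.71 or below. None of 7 blood genes was called.

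Endothelial genes were lower, 11 of 18 with none higher (median -1.91), but only 6 without WC_2646 and 7 without WC_2647. Plvap, a protein of fenestrated vessels, fell by 4.59 (SE 0.306). The defining markers Pecam1, Cdh5 and Kdr were close to the floor in most samples of both groups and were not called, although Pecam1 was called lower without WC_2647 (difference -0.64). Of 22 pericyte and mesenchymal genes 2 were higher (Pdgfra and Mmp2) and 3 lower (Thy1, Pdgfrb and, by -0.01, Des), both smaller shares than over all genes. Without MB_630, which had the highest mean of the list (6.20 against 4.71 or less in the others), 7 were lower. Choroid plexus genes separated the WC samples from each other. Ttr, the transthyretin of choroid plexus, was at 5.56 in WC_2646 and at 14.48 in WC_2647, and Folr1 at 2.35 and 7.09, so that 2 of the 15 genes of the list were called lower in MB, namely Kcnj13 and Foxj1, but 9 without WC_2646 and 1 without WC_2647.

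**Figure D4:**
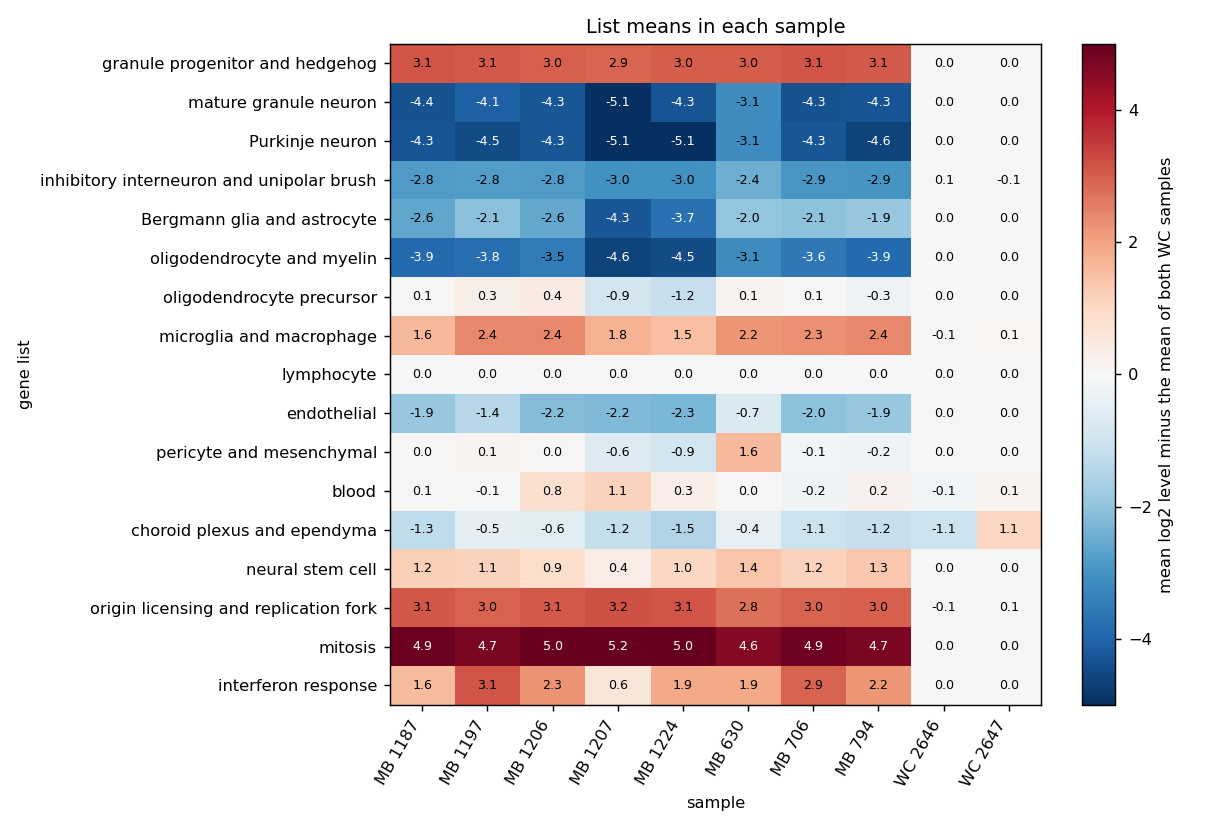
Mean log2 level of each cell type list, and of the division and interferon lists, in each sample, as the difference from the mean of both WC samples. Granule progenitor, replication and mitosis rows are nearly even across the 8 MBs, the neuron, myelin and endothelial rows are least low in MB_630, the interferon row is lowest in MB_1207 (list mean 4.10) and highest in MB_1197 (6.63), and choroid plexus genes differ between the 2 WC samples.

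MB_630 had the highest list mean of the 8 MBs for mature granule neurons, Purkinje neurons, interneurons, myelin, endothelium and mesenchyme, and the lowest for mitosis (7.73) and replication (8.11). Residual neural and vascular markers thus moved together in 1 tumor, and their part in the falls was not tested. Without MB_630 and MB_706, an alternative added after seeing the data, 3916 genes were higher and 3726 lower.

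Repair of DNA double-strand breaks is the process that the tumor model disrupts, through 3 main routes. Homologous recombination (HR) copies the sister chromatid, classical non-homologous end joining (cNHEJ) ligates the ends through the Ku proteins, XRCC4 and Ligase IV, and alternative end joining (alt-EJ) uses PARP1 and Ligases I or III. The 3 lists share a few genes, and of the 50 measured repair genes of these routes 33 were higher (66%) and 5 lower (10%) in MB, beside 21.6% and 21.0% of all genes.

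In the HR list 22 of 30 genes were higher and 2 lower, with a median of 1.71. Brca2, a central factor of this route, was at 5.04 and 5.29 in WC and at 8.19, 8.91 and 9.35 in MB, a difference of 3.72 (SE 0.264, adjusted p = 6.07e-06). Brca1, which promotes end resection, was at 3.14 and 2.85 in WC and at 4.66, 6.18 and 6.37 in MB, where MB_706 was the lowest. Rad51ap1 rose by 5.87 (SE 0.455), the translocase Rad54b by 4.93 (SE 0.258), Palb2, which links BRCA1 and BRCA2, by 3.58 (SE 0.272), and the helicase Blm by 3.46. Mus81, a nuclease that cuts joint molecules, was lower by 2.42 (SE 0.281), at 8.49 and 8.47 in WC and at 5.46, 6.10 and 6.59 in MB. Rad51d was lower by 0.46 (SE 0.111), but with its probe set of highest signal it was higher by 0.17, and without WC_2646 it was not called. Rad52 was near 5.9 in both groups and was not called. Of 6 mismatch repair genes 3 were higher and none lower, led by the nuclease Exo1 (3.40), Msh6 (2.67) and Pms1 (2.47). Of 17 Fanconi anemia genes, which repair crosslinks together with HR, 12 were higher and 1 lower (median 1.05), with Fancd2 rising by 2.03 (SE 0.181) from close to the floor and Faap20 lower by 0.89, a call that was lost without WC_2646. With the test limited to genes above 5 in either group 4 were higher.

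The cNHEJ list moved less evenly, with 4 of 11 genes higher and 2 lower and a median of 0.56. Xrcc5, which encodes Ku80, was at 5.71 and 5.48 in WC and at 8.70, 9.06 and 9.29 in MB, a difference of 3.44 (SE 0.139, adjusted p = 1.71e-07), while Xrcc6, which encodes its partner Ku70, rose by 0.62. Lig4, the ligase that works with XRCC4, rose by 0.92 (SE 0.171, adjusted p = 0.00213), with MB levels of 7.59, 7.85 and 8.22 against 6.96 and 6.99 in WC. Aplf, a scaffold factor, rose by 1.78 (SE 0.220). Paxx, which stabilizes Ku at ends, was lower by 2.43 (SE 0.120, adjusted p = 5.91e-07), together with Xrcc4 as given above. Prkdc, the kinase of the complex, had a difference of -0.09 and was not called. Nhej1 was at the floor in all samples.

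In the alt-EJ list 10 of 12 genes were higher and 1 lower, with a median of 0.96. Lig1 was at 6.58 and 6.52 in WC and at 9.56, 10.45 and 10.62 in MB, a difference of 3.76 (SE 0.257, adjusted p = 4.70e-06). Lig3 rose by 0.73 (SE 0.134, adjusted p = 0.00197), with means of 4.98 in MB and 4.25 in WC, both under a level of 5. The study reports Lig3 as detected in neither the tumors nor the healthy cerebellum. Parp1 rose by 1.48 (SE 0.193, adjusted p = 0.000250), with MB levels of 8.92, 9.18 and 9.66 against 7.83 and 7.57 in WC. Fen1, a flap nuclease also active at replication forks, rose by 2.26 (SE 0.233), and the end resection nuclease Mre11a by 2.15 (SE 0.0761). The exception was Ercc4, a flap nuclease, which was lower by 0.69 (SE 0.0985) and lost its call with its probe set of highest signal. Polq, the polymerase of this route, was at 2.5 in MB and 2.3 in WC and was not called. Several of these genes, such as Lig1 and Fen1, also belong to the replication list, in which 47 of 50 genes rose.

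Among damage checkpoint genes 11 of 19 were higher and none lower (median 1.10). Chek2, a kinase below ATM, rose by 4.74 (SE 0.157), Timeless of the fork protection complex by 4.27 (SE 0.272), and Mdc1, which binds phosphorylated H2AX, by 3.14 (SE 0.187). The kinase genes Atm and Atr rose by 2.38 and 1.55, whereas Trp53bp1, Rif1 and Rnf8 were not called. Of 26 measured p53 target genes 8 were higher and 9 lower, with a median of 0.03 that was -0.19 after the shift of arrays to the same median and -0.03 without WC_2646, and 5 were lower without either WC sample. The targets that rose were led by Eda2r (5.23, SE 0.249), which encodes a receptor, and Pmaip1 (4.15, SE 0.376), a BH3-only protein. Those that fell were led by Phlda3 (-1.90, SE 0.112) and Perp (-1.30, SE 0.237).

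Growth and energy metabolism moved in different directions. Of 35 genes of ribosome biogenesis 32 were higher and none lower (median 1.77), with Nop58, a box C/D snoRNP protein, rising by 3.45 (SE 0.197) and the rRNA methylase Fbl by 3.42 (SE 0.380). Of 28 genes of the respiratory chain 23 were lower and none higher, by smaller amounts (median -0.67, and -0.89 after the shift of arrays), such as Ndufs1 of complex I, lower by 1.23 (SE 0.107). Of 21 measured glycolysis genes 14 were lower and 1 higher. Gpi1, Aldoa, Gapdh and Eno1 were not measured, and the largest falls were of Eno2, Aldoc and Hk1. The count therefore covers only part of the pathway's isoforms. The hexokinases moved in opposite directions. Hk1, the isoform of adult brain, was at 8.97 and 8.80 in WC and at 4.82, 5.13 and 5.42 in MB, while Hk2, an isoform common in dividing cells, was at 6.75 and 7.19 in WC and at 10.92, 11.83 and 12.38 in MB. Ldha had a difference of 0.65 and was not called. Of 19 genes of cholesterol synthesis 8 were higher and 5 lower, and without WC_2646 and WC_2647 in turn 4 and 3 were higher and 2 and 3 lower.

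Of 27 polycomb and DNA methylation genes 15 were higher, 4 lower and 8 not called (median 0.74). Uhrf1, which recruits the maintenance methyltransferase, rose by 6.74 (SE 0.311) from close to the floor, the chromatin remodeler Hells by 5.48 (SE 0.312) and Ezh2, the polycomb methyltransferase, by 4.99 (SE 0.277). Ezh1, the form of Ezh2 in resting cells, was lower by 0.77 (SE 0.140), and the polycomb readers Cbx6 and Cbx7 differed by -1.93 and -1.39.

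The interferon list mean was above both WC samples in all 8 tumors, by amounts that varied. Of 27 measured genes 13 were higher and 1 lower (median 2.28), and 7 and 6 were higher without WC_2646 and WC_2647. Usp18, an interferon-induced regulator, was at 2.58 in one WC sample and at the floor in the other, and at 4.44, 7.52 and 9.04 in MB, with MB_1207 the lowest. Ifit2 was less variable, at 3.58 and 4.68 in WC and at 8.56, 8.88 and 9.37 in MB, and Cgas, the sensor of cytosolic DNA, rose by 3.82. Usp18 was also high in the 2 GNP samples, at 7.21 and 9.65, whereas Ifit2 averaged 3.94 there, near its WC mean of 4.13. Stat2, a transcription factor of the pathway, was lower by 2.19 (SE 0.209). The list mean over the MBs ran from 4.10 in MB_1207 to 6.63 in MB_1197. Of 15 genes of MHC class I and antigen processing 4 were higher and 2 lower, the former share near the 21.6% of all genes and the latter below 21.0%. B2m, the light chain, rose by 2.44 (SE 0.298), with the proteasome genes Psmb8 (3.19), Psmb9 (2.30) and Psme1 (1.98), of which Psmb8 and Psmb9 were not called without either WC sample, and the chaperone genes Calr and Pdia3 were lower by 0.80 and 1.32. In the immediate early list 5 of 23 were higher and 5 lower, shares close to those over all genes, and 3 were higher without either WC sample. Egr2, a factor of early hindbrain, rose by 4.62, and Arc, a gene of active synapses, was lower by 1.51.

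The genes called were not spread evenly over the chromosomes. On chromosome 13, 9.99% of 691 genes were higher in MB, beside 21.6% of all genes, and 22.3% were lower. The next lowest shares of higher genes were 13.8% on chromosome 15, 16.1% on chromosome 7 and 17.1% on chromosome 19. The median difference of the 321 genes of chromosome 13 above 5 in either group was -0.21, the lowest of any chromosome, whereas that of chromosome 6 was 0.33, the highest. The values per tumor, as medians of the difference from the WC mean, varied between tumors. For chromosome 13 the median was -0.48 in MB_1187, -0.53 in MB_1197, -0.35 in MB_706, -0.34 in MB_794, -0.12 in MB_1224 and -0.10 in MB_1206, but 0.17 in MB_1207 and 0.10 in MB_630. Chromosome 6 had 0.53 in MB_1187 and 0.60 in MB_1207, against 0.19 to 0.33 in the other 6. Chromosome 12 was below 0 in MB_1207 alone (-0.34) and chromosome 7 in MB_630 alone (-0.23). Chromosome 19 was lowest in MB_1206 (-0.45), followed by MB_630 (-0.18) and MB_706 (-0.17), and was above 0 in MB_1187 alone (0.04). Chromosome 15 was at -0.29 in MB_630, -0.14 in MB_794 and -0.03 in MB_1224, and above 0 in the others. The median over all such genes lay between 0.07 and 0.17 in every tumor. All tumors share the same 2 WC samples in these differences, and the arrays hold no measure of DNA copies.

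**Figure D5:**
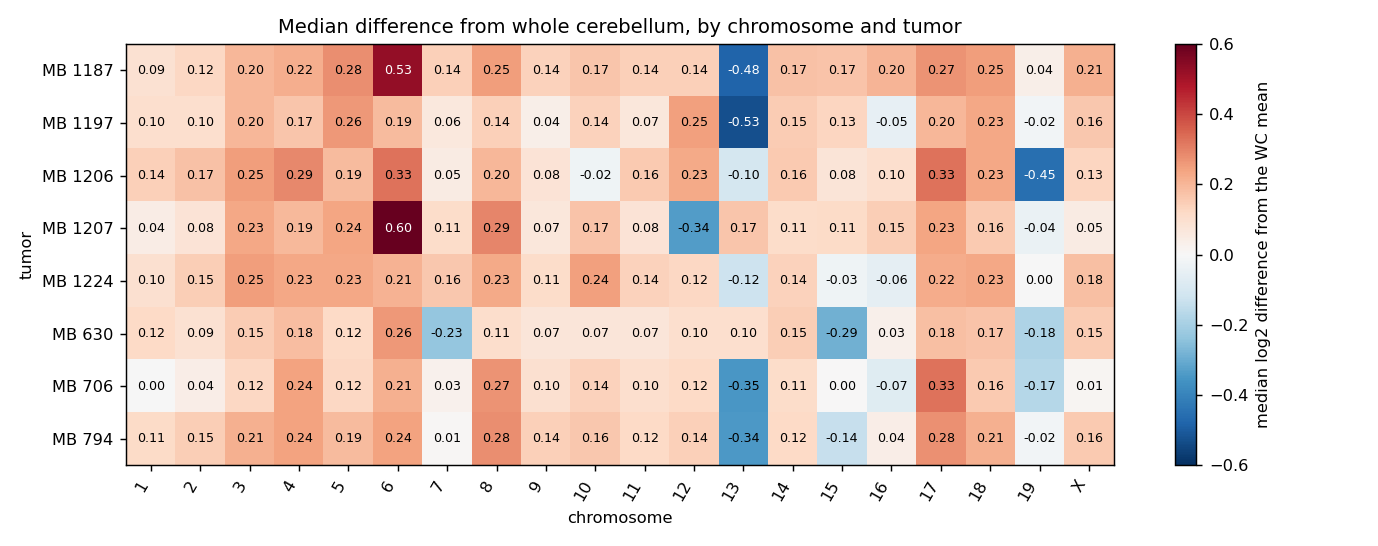
Median log2 difference from the WC mean over the genes above a level of 5 in MB or WC, for each chromosome (columns) and MB (rows). Chromosome 13 is below 0 in 6 of the 8 tumors, and chromosome 6 is high in MB_1187 and MB_1207. Chromosomes 12 and 7 are below 0 in 1 tumor each, whereas chromosome 19 is below 0 in all but MB_1187 and lowest in MB_1206. Chromosome 15 is lowest in MB_630.

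Gene length also differed between the genes that rose and fell. Among protein-coding genes above 5 in either group, the share called lower was 25.4% for genes spanning 10 to 30 kb and 52.9% for the 278 genes of 300 kb or more, while the share called higher was 38.6% and 20.5%. The median difference was 0.23 in the former and -1.10 in the latter. Long genes are common among those of neurons and synapses, and the part of cell type in this relation was not tested.

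Among genes with high levels in both tissues, a few were held within narrow limits. By the largest mean level among genes whose 95% interval lay within 0.5, these were Eef1a1, a translation factor, Tmsb4x, an actin-binding peptide, Hnrnph1, a splicing factor, Oaz1, a regulator of polyamines, and Hint1. Tmsb4x had a difference of -0.07 (95% interval -0.36 to 0.22) and Oaz1 of -0.17 (95% interval -0.44 to 0.09). Eef1a1, Hnrnph1 and Hint1 passed the test with differences of 0.24, 0.17 and 0.24, which are close to the 0.22 by which the scaling moved all genes. Without WC_2646 none of the 3 was called. Without WC_2647 Hnrnph1 alone was called, and Eef1a1 also lost its call without each of 7 of the MBs in turn, the exception being MB_706.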

How the data were processed

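RNA of 8 medulloblastomas (MBs) and 2 whole cerebellum (WC) samples, 1 per mouse, had been hybridized to Affymetrix whole-genome mouse expression arrays. The deposited values are log2 intensities that the authors made by GCRMA normalization with the R library affy; GCRMA subtracts a background estimated from probe sequence, which sets dim probe sets to a common lowest value (the floor) and shrinks differences there. Of 45101 probe sets, 64 were array controls, 34945 were paired with 1 gene, 932 with several and 9160 with none in the platform annotation, whose symbols were updated by Entrez number where possible. A gene's value was the mean of its single-gene probe sets other than those ending in _s_at or _x_at, which can cross-hybridize; 31076 probe sets gave 17903 genes, and 290 genes with only such probe sets were left out. Groups were compared with lmFit and eBayes of limma (version 3.58.1, R 4.3.3) over the 8 MBs and 2 WC samples, two-sided; p-values were adjusted by Benjamini and Hochberg's method across the 17903 genes, genes under 0.05 were called, and every adjusted p is from this fit. The number of arrays, above all the 2 WC samples, limits the precision. In simulated data on these 17903 genes, 200 genes each were changed by 0.5, 1 and 2 log2 units. Of these, 18%, 57.5% and 84% were recovered, and 4.2% of calls were false. Far fewer genes were changed there than the 7628 (42.6%) called in the data. The cut-off after adjustment depends on the share of changed genes, so these percentages do not give the recovery or the false calls of the present comparison.

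The genes named were the 12 largest rises and falls, the repair factors and oncogenes of the study, the 3 members of each list with the largest rise and the largest fall, and defining markers; others named were chosen after their values were seen. Genes and gene lists were chosen with earlier results of these data known, so list counts are descriptions, and no set test was run. Promoters were RefSeq windows of GRCm38.p6. Alternatives were another choice of probe sets, scaling, spread estimate, array weights, the fit with GNPs, the methods' t-test, filters on level and on size of change, and leaving out each array. Python 3.11.15, pandas 2.3.3 and matplotlib 3.10.9 were used.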

Additional observations from a re-analysis of the deposited data

Results flagged for a closer look

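For 246 gene levels and list means over the 8 MBs, the gap between the highest or the lowest tumor and its neighbour was set against the range of the group, and in 41 the gap was larger than Dixon's 95% limit. For normally distributed values chance alone gives about 1 in 20 such groups, but the 41 cannot be set against this rate. The items are not independent, since many belong to the same lists, and some genes were named for their large SD over the MBs. For others, such as Pecam1 and Kcnj13, all MBs but 1 lay close to the floor, where a small rise is enough to be flagged. Most concerned MB_630, which was the highest tumor for neuronal genes that were low in the others. Gabra6 was at 8.78 there and at 2.24 to 4.69 elsewhere, Ppp1r17 at 5.97 against 2.54 or less, Crtam at 6.54 against 3.18 or less, Elmod1 at 6.01 against 2.80 or less, Cbln3 at 8.04 against 4.97 or less and Gad1 at 7.52 against 4.81 or less. The same tumor was highest for Tmem59l (5.26), Gabrd (3.46), Calb1 (5.70), Syt2 (3.28), Grm4 (7.37), Gabrb2 (6.04), Kcnip4 (5.07), Cacna1g (3.71) and Nefh (5.02). For myelin genes it was highest for Mal (5.16), Mag (3.79), Ermn (4.05) and Mog (3.77), and for vessel and choroid plexus genes for Pecam1 (2.74), Kcnj13 (3.51), Folr1 (2.99) and Kl (2.84). Its list means stood apart for Purkinje neurons (5.87), interneurons (3.62), pericyte and mesenchymal genes (6.20), synaptic vesicle genes (6.34) and voltage-gated channels (4.60). It was the lowest tumor for the replication genes Mcm6 (11.66) and Pole (8.80).

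MB_706, whose control probe sets showed the largest difference between 3′ and 5′ signals, was the lowest tumor for Brca1 (4.66 against 5.82 or more), Cd24a (12.12) and Nop58 (11.22). The part of RNA quality in these levels was not tested. MB_1207 was the lowest for Vim (9.73 against 11.39 or more), Sox2 (7.84), Dpysl3 (8.23), Usp18 (4.44 against 6.94 or more) and Irx3 (2.44), and the highest for Gen1, a nuclease of homologous recombination, at 9.83 against 6.53 or less (6.21 to 6.53). MB_794 was the highest for Msh6, a mismatch repair gene, at 12.13 against 10.90 or less, and MB_1187 the lowest for Pmvk, a gene of cholesterol synthesis, at 7.05 against 7.39 or more.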

How the results depend on the processing

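Leaving out each array in turn gave 2922 to 3886 genes higher and 3389 to 3759 lower, with the lowest counts without WC_2646, and, of 50 double-strand break repair genes, 31 to 34 higher and 4 to 5 lower. Requiring a minimum log2 change of 1 left 1234 genes higher, 1391 lower, and 19 repair genes higher and 2 lower. With arrays shifted to the same median 9938 genes and 9 repair genes were lower. With the probe set of highest signal, and with genes limited to levels above 5, 3 repair genes were lower. Under the shift Nhej1, Cd3e, Cd3g and Hba-a1 turned to -0.22, Cd3d to -0.19 and Hnrnph1 to -0.0552, all but Hnrnph1 being at the floor. Des turned to 0.0513 after quantile normalization. With the probe set of highest signal Rad51d turned to 0.17, Cycs to 0.15 and Cyp51 to -0.28, and 49 genes over all were called in opposite directions. The causes were not tested. Of 206 named genes, 29 lost their call without WC_2646, 23 without WC_2647 and 54 under the minimum change. The methods' t-test gave 3783 higher and 3698 lower after Benjamini-Hochberg adjustment. No paired analysis was possible because the mouse numbers are not shared between the groups. Differences of genes near the floor are bounds.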
